A study of Arabidopsis thaliana with 9 samples.

Results

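Narrow H3K4me3 peaks that were present in every library of this experiment are described here. Peaks of the 6 deposited peak lists that overlapped by at least 1 bp were merged into regions on chromosomes 1 to 5, which gave 14670 regions in all. A region counted as narrow when each of the 6 libraries had exactly 1 peak in it and the mean peak length over the 2 wild-type libraries was under 1300 bp. This rule selected 382 regions, and the other 12573 regions with 1 peak in every library are called wider single-peak regions below. Wild-type lengths chose the narrow regions, so their short wild-type length is a description and not a result.

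Chromatin was taken from 12-day-old Arabidopsis thaliana seedlings of 3 genotypes in the Col-0 ecotype: the mutant jmj28-2, the mutant atx1/2 and wild-type Col-0, each with 2 H3K4me3 libraries from chromatin immunoprecipitation and sequencing. All seedlings grew at 23 °C in long days (16 h light, 8 h dark) on medium with sucrose; the labels name no further treatment, and no allele names for atx1/2 beyond this one. The 3 samples precipitated with an antibody to histone H3 were left out. Whether both libraries of a genotype stem from separate plants is not in the labels, so a p-value below reflects the variation among the deposited libraries alone, possibly technical, and in whole seedlings a mark carried by fewer cells cannot be told apart from less mark per cell.

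Trimethylation of lysine 4 of histone H3 marks active genes in plants and lies mostly over the first part of the transcribed unit. It is written by COMPASS-like complexes, whose catalytic subunits in Arabidopsis include the trithorax-like proteins ATX1 and ATX2 and the SET-domain protein SDG2. JMJ28 belongs to the JmjC family of histone demethylases, in the branch related to enzymes acting on lysine 9 of histone H3. The length of an H3K4me3 peak is the stretch over which a peak caller found the mark, so a narrow peak covers a short part of a gene or sits on a short transcription unit.

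The narrow regions formed the lower tail of the length distribution. Over wild-type libraries the median of their mean lengths was 1176 bp, against 1865 bp in the wider single-peak regions. Counts grew towards the limit: 174 regions were between 1200 and 1300 bp, 121 were between 1000 and 1200 bp, 62 were between 800 and 1000 bp, and 25 were under 800 bp. Just inside the limit were AT4G09520 and a region on the non-coding RNA gene AT1G43765 at 1297 bp each, AT2G19460 at 1298.5 bp, AGL80 at 1299 bp, and AT1G65710 and IBH1 at 1299.5 bp each. Just outside it were AT4G03965 at 1301 bp, AT1G18310 at 1301.5 bp, KU70 at 1302.5 bp, HR4 at 1303 bp and SLK1 at 1304 bp, so the limit cut through a continuum and the bin above it, 1300 to 1400 bp, held 288 regions. Of the 490 regions with a peak in both wild-type libraries and a mean peak length under 1300 bp there, 105 were not narrow regions because at least 1 mutant library had no peak, and 3 because some library had several.

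**Figure D1:**
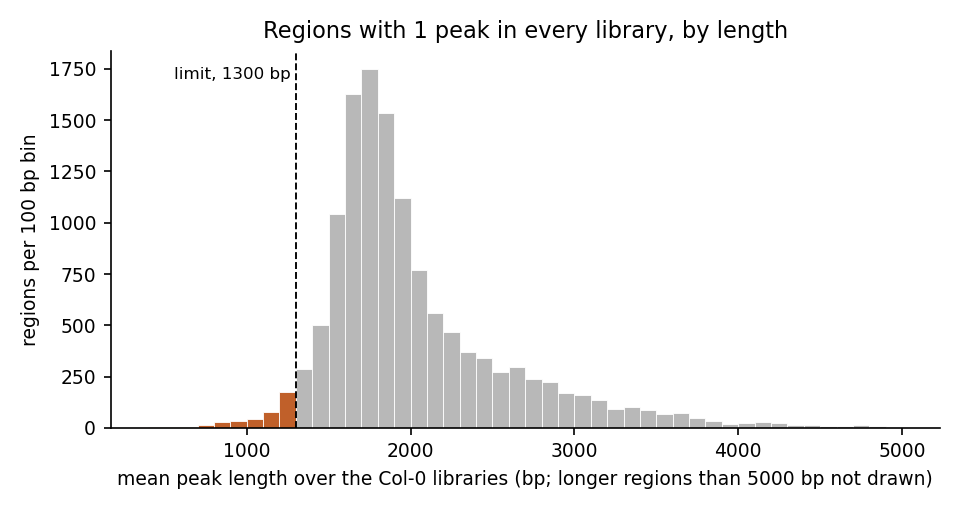
Number of single-peak regions in each 100 bp bin (y axis) by mean peak length over the 2 Col-0 libraries (x axis, bp), with the 382 narrow regions in orange and the wider ones in grey. The dashed line is the limit of 1300 bp; 40 regions of 5000 bp or more are not drawn.

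The lengths of the 382 regions were close to each other in all 6 libraries. The median length was 1176.5 and 1191 bp in the jmj28-2 libraries, 1198.5 and 1199 bp in the atx1/2 libraries, and 1173 and 1174.5 bp in the Col-0 libraries. As genotype means these were 1184 ± 10.3 bp (jmj28-2), 1199 ± 0.354 bp (atx1/2) and 1174 ± 1.06 bp (Col-0) (SD, n = 2 each). Single peaks ranged from 412 to 2298 bp. In 232 regions the peak stayed under 1300 bp in every library, and in 19 regions it exceeded 1500 bp in at least 1 library. The peaks also sat at the same place in all libraries: the stretch shared by all 6 libraries made up a median of 86.7% of a narrow region and 88.2% of a wider single-peak region. The SD of the left edge over the 6 libraries had a median of 28.7 bp in narrow and 40.9 bp in wider single-peak regions, and that of the right edge 30.3 bp in narrow and 39.4 bp in wider ones.

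**Figure D2:**
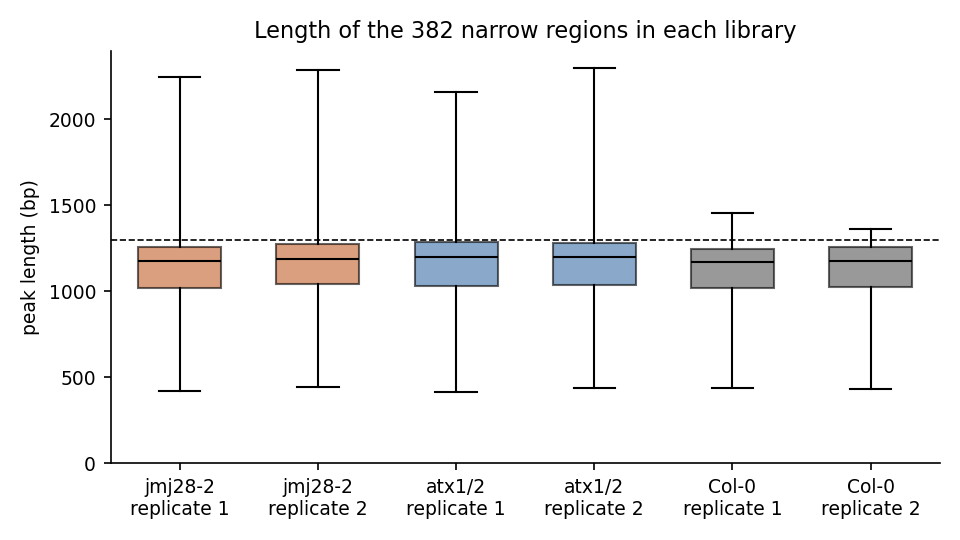
Peak length (y axis, bp) of the 382 narrow regions in each library, with jmj28-2 in orange, atx1/2 in blue and Col-0 in grey. Boxes show the quartiles and the median, whiskers reach the lowest and highest region, and the dashed line is the limit of 1300 bp. Medians lie between 1173 and 1199 bp, while the upper whiskers of the mutant libraries reach beyond 2100 bp and those of Col-0, whose lengths made the selection, stop at 1457 and 1361 bp.

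Most narrow peaks were also among the weakest of their lists. The deposited score of each peak is the value that the authors' peak caller gave it, so it was used only as a percentile within its own list, with 0 for the weakest and 100 for the strongest. The median percentile of the narrow regions was 9.74 and 9.28 in the jmj28-2 libraries, 11.3 and 11.2 in the atx1/2 libraries and 9.81 and 9.79 in the Col-0 libraries, whereas medians of the wider single-peak regions lay between 52.9 and 53.6. The atx1/2 lists hold more peaks than the others (14492 and 14493, against 14338 and 14306 in jmj28-2 and 14343 and 14291 in Col-0). When the 14291 strongest peaks of every list were ranked, the medians were 9.44 and 9.18 in jmj28-2, 10.1 and 9.90 in atx1/2, and 9.48 and 9.79 in Col-0. Of the 382 regions, 199 (52.1%) averaged below the 10th percentile over the 6 libraries. Score and length come from the same peak call, so they are not independent readouts.

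The shortest regions over genes with a symbol lay on an acyl-activating enzyme gene, on tubulin genes and on a cytochrome P450 gene. AAE5 (AT5G16370), which encodes an acyl-activating enzyme, held the shortest of all at chr5:5357256-5357722 (TAIR10). Its peak was 456 and 464 bp long (jmj28-2), 440 and 439 bp (atx1/2) and 437 and 433 bp (Col-0), and it lay inside the gene without reaching either annotated end. Both jmj28-2 peaks were slightly longer than the other 4. A second narrow region began 565 bp further on, at chr5:5358288-5359039, and covered 1 end of AAE5, with 707 and 722 bp (jmj28-2), 749 and 658 bp (atx1/2) and 694 and 727 bp (Col-0).

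TUB2 (AT5G62690) and TUB3 (AT5G62700) are neighbouring genes that encode beta-tubulins, the building blocks of microtubules together with alpha-tubulins. Each carried 2 narrow regions instead of a single long one, and the 2 genes had almost the same layout. On TUB2 the first region (chr5:25180935-25181673) was 686 and 739 bp long (jmj28-2), 647 and 676 bp (atx1/2) and 716 and 728 bp (Col-0). The second region on TUB2 (chr5:25181879-25182958) had 1067 and 1070 bp (jmj28-2), 1071 and 1025 bp (atx1/2) and 1019 and 1033 bp (Col-0). Between them lay a gap of 205 bp with no peak in any library. On TUB3 the first region (chr5:25183905-25184610) was 689 and 704 bp long (jmj28-2), 663 and 659 bp (atx1/2) and 700 bp in both Col-0 libraries, and a gap of 194 bp followed. The second region on TUB3 (chr5:25184805-25185884) had 971 and 1080 bp (jmj28-2), 998 and 1012 bp (atx1/2) and 718 and 1015 bp (Col-0), where replicate 1 stood apart from the other 5 libraries. In both genes the outer region covered 1 gene end and the inner region lay wholly inside the gene. TUB2 and TUB3 are close copies of each other, and how reads that match several places were handled is not given in the sources used here, so the part of shared reads in these gaps was not tested and the lengths over such copies are uncertain.

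**Figure D3:**
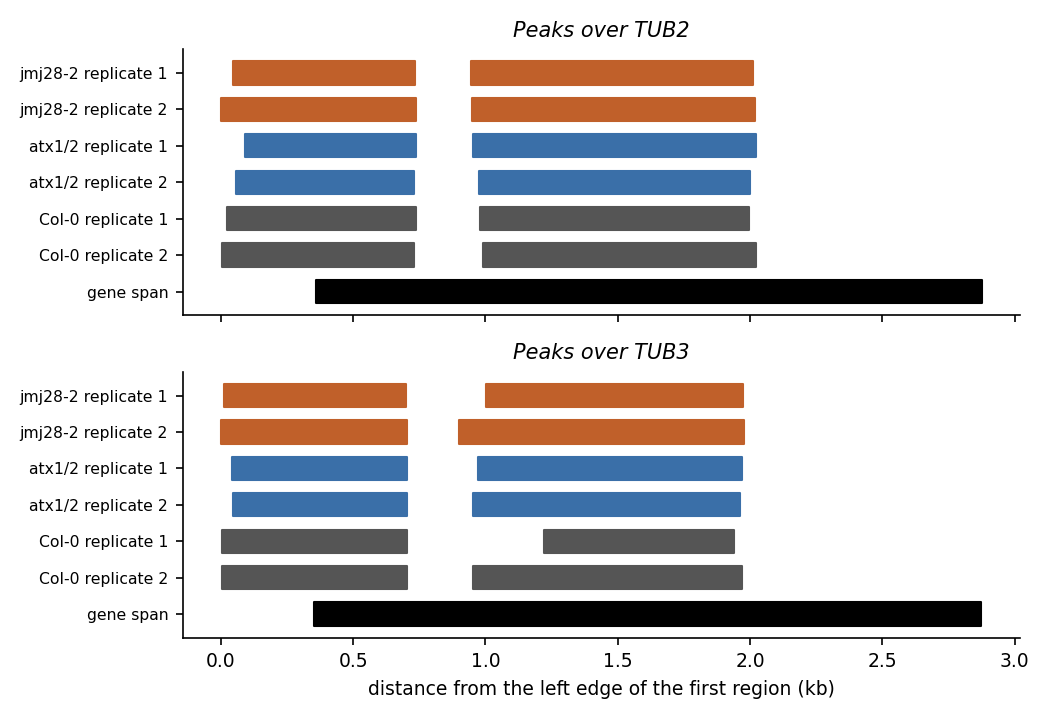
Peaks of each library (coloured bars) and the annotated gene span (black bar) over TUB2 and TUB3, by distance from the left edge of the first region (x axis, kb); jmj28-2 is orange, atx1/2 blue and Col-0 grey. Both genes have 2 peaks per library separated by a gap. Between the merged regions the gap is 205 bp wide on TUB2 and 194 bp wide on TUB3. Within a library it can be wider, as in Col-0 replicate 1 on TUB3, where it runs from 0.703 to 1.222 kb.

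The alpha-tubulin genes TUA3, TUA4 and TUA5 were narrow as well. TUA3 (AT5G19770, chr5:6684268-6685085) had 781 and 786 bp (jmj28-2), 791 and 816 bp (atx1/2) and 788 and 801 bp (Col-0). TUA5 (AT5G19780, chr5:6686580-6687537), its neighbour on the chromosome, had 819 and 830 bp (jmj28-2), 837 and 819 bp (atx1/2) and 957 and 829 bp (Col-0). TUA4 (AT1G04820, chr1:1357621-1358913) was close to the limit, with 1258 and 1275 bp (jmj28-2), 1267 and 1283 bp (atx1/2) and 1258 and 1292 bp (Col-0). TUA3 and TUA5 were weak peaks, with mean score percentiles of 9.16 for TUA3 and 12.5 for TUA5, while TUA4 was strong, with 73.0. The 6 shortest also included CYP706A1 (AT4G22690, chr4:11929467-11930244), a cytochrome P450 gene, with 682 and 778 bp (jmj28-2), 691 and 714 bp (atx1/2) and 751 and 721 bp (Col-0), so that the genotypes overlapped.

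A minority of narrow peaks were strong. On average over the 6 libraries, 54 of the 382 regions stood above the 30th percentile of their lists and 28 above the 50th. The strongest of all, at percentile 87.2, was the region of AT3G62530 (chr3:23132139-23133180), which measured 995 and 1036 bp (jmj28-2), 993 and 999 bp (atx1/2) and 981 and 985 bp (Col-0) and lay 13 bp from the next region. Among genes with a symbol the 8 strongest were EDA35, TUA4, PAI3, XPB1, UBP9, PDX1.1, UBP10 and ILL1, with mean percentiles from 81.4 for EDA35 to 53.5 for ILL1. EDA35 (AT4G05440, chr4:2756698-2757997), named for an arrest of embryo sac development, had 1261 and 1269 bp (jmj28-2), 1175 and 1206 bp (atx1/2) and 1232 and 1275 bp (Col-0). XPB1 (AT5G41370, chr5:16550647-16551861) encodes a DNA helicase of the general transcription factor TFIIH, and its peaks were 1208 and 1128 bp (jmj28-2), 1184 and 1149 bp (atx1/2) and 1181 and 1192 bp (Col-0). That peak covered 15.1% of a 4920 bp gene. PAI3 belongs to the tryptophan pathway, PDX1.1 makes vitamin B6, ILL1 belongs to a family of enzymes that release auxin from amino acid conjugates, and UBP9 and UBP10 remove ubiquitin from proteins. UBP9 (chr4:6527393-6528703) had 1190 and 1285 bp (jmj28-2), 1310 and 1182 bp (atx1/2) and 1250 and 1284 bp (Col-0). UBP10 (chr4:6542538-6543900), the next protein-coding gene in the annotation, had 1299 and 1263 bp (jmj28-2), 1303 and 1317 bp (atx1/2) and 1300 and 1264 bp (Col-0).

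Fewer narrow than wider single-peak regions lay across several genes: 57 of 382 (14.9%, 95% Wilson interval 11.7 to 18.8) overlapped 2 or more protein-coding genes, against 30.9% of the wider ones (30.1 to 31.7). Each region was assigned the protein-coding gene that it overlapped most, by at least 200 bp, using RefSeq gene spans of assembly TAIR10.1, whose fit to the peak positions was checked by shifting them against each other. A gene was found for 344 of the 382 regions, and these regions lay on 339 different genes. The median gene span was 2217 bp in narrow and 2630 bp in wider single-peak regions, and 85 of 344 narrow genes (24.7%, interval 20.5 to 29.5) but 5.68% of wider ones (5.28 to 6.10) spanned less than 1300 bp. Genes of over 5000 bp lay under 9.88% of narrow and 9.67% of wider single-peak regions with a gene. A narrow peak covered a median of 42.0% of its gene, against 61.4% for a wider peak. Short regions have less room to overlap several genes or to cover much of one. The lower shares of regions over several genes and of gene covered therefore follow in part from the rule. Intervals cover counting error only, and neighbouring regions are not independent.

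In 54 of 344 narrow regions with a gene (15.7%, interval 12.2 to 19.9) the region reached neither end of the gene, against 2.02% of wider single-peak regions (1.79 to 2.28). Short regions have less chance to reach an end whatever their position, and the share followed length: it was 47.8% under 800 bp, 32.2% from 800 to 1000 bp, 15.1% from 1000 to 1200 bp and 5.13% from 1200 to 1300 bp. The RefSeq table gives no strand, so the start and the end of a gene could not be told apart. Another region lay on the same gene in 29 narrow regions (8.43%, interval 5.93 to 11.8) and in 1.54% of wider ones (1.34 to 1.77). Beyond AAE5, TUB2 and TUB3, pairs of narrow regions lay on BXL1, which encodes a beta-xylosidase of the cell wall, and on AT4G12770. On BXL1 the regions chr5:20012527-20013813 and chr5:20015753-20017099 were 1939 bp apart. The first measured 1209 and 1250 bp (jmj28-2), 1284 and 1178 bp (atx1/2) and 1180 and 1165 bp (Col-0), and the second 1237 and 1215 bp (jmj28-2), 1259 and 1290 bp (atx1/2) and 1152 and 1076 bp (Col-0). On other long genes a narrow region shared the gene with a wider one, as on ICU2, a subunit of DNA polymerase alpha, and GCT, a subunit of the transcriptional Mediator. These narrow regions also overlapped neighbouring genes, ALC beside ICU2, and AGP21 and AT1G55335 beside GCT. They covered 10.9% of ICU2 and 5.87% of GCT.

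**Figure D4:**
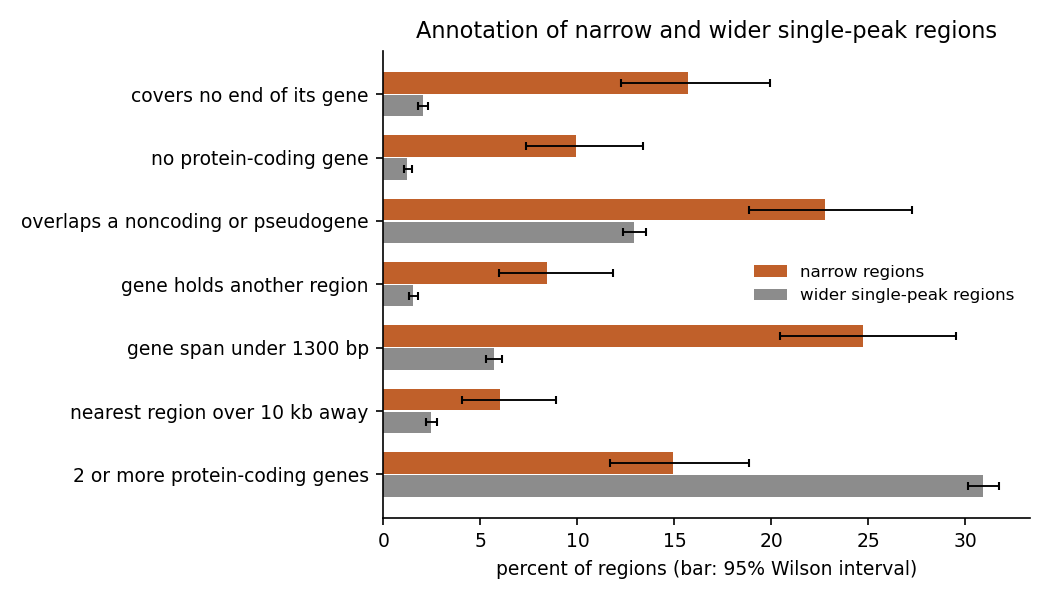
Percent of narrow (orange) and wider single-peak (grey) regions with each annotation (x axis, percent; bars show 95% Wilson intervals). Shares of gene ends, other regions on the gene and gene span are over regions with a protein-coding gene (344 narrow regions), the others over all regions of a class (382 narrow regions). The first 6 shares are higher in narrow regions, such as 15.7% against 2.02% for regions that reach neither gene end, and the last is lower, with 14.9% against 30.9% over 2 or more genes.

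No protein-coding gene was found under 38 narrow regions (9.95%, interval 7.33 to 13.4), against 1.24% of wider single-peak regions (1.06 to 1.45). Of these 38, only 5 had no annotation at all, and the others lay on non-coding RNA genes or pseudogenes. Counting regions with and without a protein-coding gene, 87 narrow regions (22.8%) and 12.9% of wider ones overlapped a non-coding gene or a pseudogene. Long non-coding RNA genes were the largest class, with 42 of 382 narrow regions (interval 8.24 to 14.5%) against 7.28% of wider ones (6.84 to 7.74). Pseudogenes counted as transcribed lay under 11 narrow regions. The strongest narrow region without a protein-coding gene, at percentile 59.2, covered SADHU1-3 (chr5:10631694-10632980), a member of the Sadhu retroposons, with 1257 and 1217 bp (jmj28-2), 1164 and 1231 bp (atx1/2) and 1216 and 1284 bp (Col-0). Its nearest neighbouring region was 15110 bp away.

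Genes for small RNAs were among these regions. MicroRNA genes lay under 5 narrow regions (1.31%, interval 0.560 to 3.03) against 0.573% of wider ones (0.455 to 0.720). MIR173 (chr3:8235713-8237021) encodes the microRNA that cuts TAS1 transcripts and so starts the formation of trans-acting small interfering RNAs. Its peak was 1199 and 1218 bp long (jmj28-2), 1274 and 1233 bp (atx1/2) and 1188 and 1216 bp (Col-0). TAS1B, such a precursor, lay under another narrow region together with MIR5636 (chr1:18549090-18550311), with 1085 and 1114 bp (jmj28-2), 1133 and 1222 bp (atx1/2) and 1094 and 1164 bp (Col-0). Both were weak, at percentile 6.34 for MIR173 and 5.85 for TAS1B. The others were MIR414, MIR447a and MIR5652, of which MIR447a shared its region, at percentile 40.6, with the protein-coding gene AT4G03450.

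Several narrow regions lay on genes that share a family symbol or stand next to each other, a pattern noticed only after the values had been seen and not tested. Of the 130 narrow genes with a symbol, 43 (33.1%, interval 25.6 to 41.5) shared its stem, the part before the member number or letter, with another narrow gene. Among 5734 genes with a symbol in wider single-peak regions, 255 (4.45%, interval 3.94 to 5.01) shared a stem with a narrow gene; the 2 counts are not built alike, because large families such as MYB are in both. The 20 stems included pairs of genes that encode the same kind of protein: SAP130a and SAP130b, subunits of a splicing complex, UAP56a and UAP56b, helicases of messenger RNA export, VSR3 and VSR4, vacuolar sorting receptors, and SEC3A and SEC3B, subunits of the exocyst. The next protein-coding gene on the chromosome was also narrow for 35 of 339 narrow genes (10.3%), whereas 263 of 12332 wider genes (2.13%) had a narrow gene beside them. Pairs often had similar lengths. SAP130a (chr3:20459835-20460811) had 825 and 972 bp (jmj28-2), 826 and 772 bp (atx1/2) and 813 and 832 bp (Col-0), and SAP130b (chr3:20470801-20471675) had 839 and 840 bp (jmj28-2), 874 and 848 bp (atx1/2) and 862 and 859 bp (Col-0). UAP56a (chr5:3553291-3554218) had 880 and 882 bp (jmj28-2), 885 and 906 bp (atx1/2) and 894 and 916 bp (Col-0), and UAP56b (chr5:3567376-3568324) had 854 and 901 bp (jmj28-2), 848 and 877 bp (atx1/2) and 939 and 880 bp (Col-0). Near-identical copies can lose or share reads in mapping, and the part of this in the short peaks was not tested.

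PUM2 and PUM3 on chromosome 2 encode RNA-binding proteins of the pumilio family, which repress their target messages. PUM2 (AT2G29190) averaged 1039 ± 7.78 bp (jmj28-2), 1045 ± 12.7 bp (atx1/2) and 1065 ± 30.4 bp (Col-0), and PUM3 (AT2G29140) 915 ± 9.19 bp (jmj28-2), 902 ± 40.3 bp (atx1/2) and 934 ± 63.6 bp (Col-0) (SD, n = 2 each). In both genes the atx1/2 libraries overlapped those of both other genotypes. PUM2 had a second region 154 bp from its narrow one. That region measured 615 and 608 bp (jmj28-2) and 594 and 609 bp (atx1/2), with no peak in either Col-0 library. Its peaks were among the weakest of their lists, at score percentiles 0.872 and 1.52 (jmj28-2) and 0.221 and 1.81 (atx1/2). Whether Col-0 lacked the mark there or only fell short of a peak call was not tested.

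Across 27 gene lists taken from symbols and descriptions in the RefSeq table, narrow genes were spread thinly. Of 14246 genes with a region, 339 (2.38%) were narrow, and 34 of these 339 were in any list. The longest lists had lower shares than that, with 2 narrow genes of 149 with a region in the receptor-like kinase list (1.34%) and 1 of 120 in the pentatricopeptide list (0.833%). Cytochrome P450 genes had 6 narrow genes of 88 with a region (6.82%), among them CYP706A1, CYP706A6, CYP72A13, CYP76C2 and ROT3, a brassinosteroid enzyme. Calcium sensors and calcium-regulated kinases had 5 of 69 (7.25%), with TCH3, CML38, CML23 and CIPK21 among them. TCH3 averaged 907 ± 7.78 bp (jmj28-2), 895 ± 12.7 bp (atx1/2) and 881 ± 23.3 bp (Col-0), and CML38 1292 ± 14.1 bp (jmj28-2), 1287 ± 0 bp (atx1/2) and 1250 ± 80.6 bp (Col-0) (SD, n = 2 each). Heat shock genes had 2 of 45, namely BIP2, a chaperone of the endoplasmic reticulum, and HSP91, with mean percentiles of 51.5 for BIP2 and 51.2 for HSP91. The light harvesting and photosystem list had 2 of 37, LHCB2.1 and RBCS2B, which is a Rubisco small subunit gene and so outside the name of the list. AP2/ERF genes had 2 of 64, which were WRI4 and DDF1, MYB genes 2 of 44, which were MYB95 and MYB47, and F-box genes 2 of 49.

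Some names caught by the lists do not match the list. The ribosomal list had 3 narrow genes of 54, of which SAG24 is a ribosomal protein gene but RPP4 and RPP5 are disease resistance genes that recognise a downy mildew pathogen. RPP5 averaged 897 ± 80.6 bp (jmj28-2), 852 ± 54.4 bp (atx1/2) and 889 ± 50.2 bp (Col-0) (SD, n = 2 each), at percentile 39.3. PRR2, the only narrow gene of 18 in the clock list, is also named a pinoresinol reductase in the table, and ARD1, the only one of 120 in the pentatricopeptide list, is an acireductone dioxygenase. The MADS-box list had 2 narrow genes of 21, AGL80, which acts in the central cell of the female gametophyte, and AT1G29960. The latter entered through the synonym AGL64 alone, and whether it encodes a MADS-box protein was not checked. Flowering time genes had 1 of 70, NF-YA7. No narrow gene was found among 32 genes of H3K4 methyltransferases and COMPASS subunits, 10 genes of JmjC and LSD1-type demethylases, 54 homeobox, 41 NAC, 31 WRKY, 31 Aux/IAA and ARF, 48 RING and PUB ligase or 11 histone genes with a region. Genes without a symbol or description in the table, or with a name that a list did not search for, could not enter it. The counts therefore hold for listed genes alone, and a family can have narrow genes outside its list. Of the genes the study is about, JMJ28, ATX1, ATX2 and CO had regions with wild-type lengths between 1953.5 and 2585 bp, well above the limit, and FT had no region. FLC, a repressor of flowering, was just outside the limit, with 1321 and 1312 bp (jmj28-2), 1233 and 1298 bp (atx1/2) and 1326 and 1343 bp (Col-0).

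The difference in length between atx1/2 and jmj28-2 does not contain the wild-type lengths that chose the regions, although the Col-0 libraries enter the estimate of the spread behind its p-values. Each region's peak length plus 200 bp was taken to log2 and tested with limma, over the 14394 regions of the whole series with a peak in at least 2 libraries and with Benjamini-Hochberg adjustment over all of them. No narrow region passed an adjusted p of 0.05, while 1.58% of all tested regions did (228 regions). Of these, 21 were among the 12573 wider single-peak regions (0.167%). The rule also kept only regions with exactly 1 peak in each mutant library. A region where a mutant library lost, gained or split a peak could therefore not be narrow. The share called over all tested regions is thus not a like comparison for the narrow ones. At an unadjusted p under 0.05 there were 30 narrow regions of 382 (7.85%), beside 6.86% of all tested regions. Of the 30, 18 had longer and 12 had shorter peaks in atx1/2. Among the 12573 wider single-peak regions, 387 were longer and 289 shorter at that limit. With only single-peak regions in the limma fit, 8.90% of narrow regions and 5.34% of all 12955 had such a p. With trended and robust variances the narrow share was 4.97%, against 5.93% of all tested regions. Which share was higher depended on the fit, so nothing is read from it. When the 4 atx1/2 and jmj28-2 libraries were fitted without Col-0, no narrow region passed either, 29 narrow regions had an unadjusted p under 0.05, and 277 of all tested regions were called. The median difference in length was 10 bp in narrow regions (atx1/2 minus jmj28-2, quartiles -18.25 and 47.375) and 9.5 bp in wider single-peak regions. In narrow regions 231 lengths were longer in atx1/2 and 149 shorter. Leaving out jmj28-2 replicate 2 gave a median of 22.0 bp in narrow and 17.5 bp in wider single-peak regions, and leaving out jmj28-2 replicate 1 gave 6.0 bp in narrow and 2.5 bp in wider ones. Leaving out 1 library also let a few narrow regions pass, 3 without jmj28-2 replicate 2, 1 without jmj28-2 replicate 1, 2 without atx1/2 replicate 1 and 1 without atx1/2 replicate 2; the lone library of a genotype is then assumed to vary like the others.

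SFP1 and ARGAH2 had the smallest p-values among narrow regions with a symbol, and neither passed the adjusted threshold. SFP1 (AT5G27350, chr5:9648364-9650341), a member of the sugar porter family, had 1950 and 1929 bp in atx1/2, against 1436 and 1200 bp (jmj28-2) and 1123 and 1180 bp (Col-0). Both atx1/2 values lay above all other libraries, and jmj28-2 replicate 1 stood above replicate 2. The log2 difference, atx1/2 minus jmj28-2, was 0.50 ± 0.0817 (SE), with an adjusted p of 0.153 from limma. With 1 library left out, the log2 difference of SFP1 lay between 0.387 and 0.612. ARGAH2 (AT4G08870, chr4:5647157-5649032), an arginase gene, had 1876 and 1639 bp in atx1/2, against 1242 and 1131 bp (jmj28-2) and 1343 and 1178 bp (Col-0). The log2 difference was 0.50 ± 0.0923 (SE), with an adjusted p of 0.237 from limma. Again both atx1/2 lengths were above all the others. The ARGAH2 peak was weak in every genotype, with a mean percentile of 12.2 in atx1/2, 3.45 in jmj28-2 and 5.92 in Col-0.

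SEC3A, DTA2 and MEE5 followed with smaller differences. SEC3A (chr1:17464209-17465592) had 1313 and 1326 bp in atx1/2 against 1188 and 1205 bp in jmj28-2, DTA2 (chr2:18865694-18867052), a target of the factor AGL15 by its name, had 1341 and 1344 bp in atx1/2 against 1271 and 1261 bp in jmj28-2, and MEE5 (chr1:1899477-1900781), a splicing factor gene, had 1305 and 1273 bp in atx1/2 against 1222 and 1224 bp in jmj28-2. The adjusted p-values from limma were 0.444 for SEC3A, 0.714 for DTA2 and 0.72 for MEE5. In the other direction UGT76E12 (chr3:17188465-17189747), a glucosyl transferase gene, had 1140 and 1148 bp in atx1/2 against 1222 and 1234 bp in jmj28-2, and UBQ14 (chr4:1279252-1280580), a polyubiquitin gene, had 1124 and 1020 bp in atx1/2 against 1288 and 1311 bp in jmj28-2. AGL80 (chr5:19738564-19740076) had 1309 and 1275 bp in atx1/2 against 1407 and 1372 bp in jmj28-2. For these, for EDA35 and for the first region of TUB3 (chr5:25183905-25184610) the adjusted p-values from limma lay between 0.487 for UGT76E12 and 0.748 for TUB3. The atx1/2 and jmj28-2 libraries did not overlap in any of these 10 regions, which their small p-values had picked, and none passed the threshold. SEC3A and TUB3 each held another region, where the libraries of both genotypes overlapped. On SEC3A that was a wider one (chr1:17456577-17457990), with 1342 and 1387 bp in atx1/2 against 1289 and 1362 bp in jmj28-2. The second region on TUB3 had 998 and 1012 bp in atx1/2 against 971 and 1080 bp in jmj28-2.

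**Figure D5:**
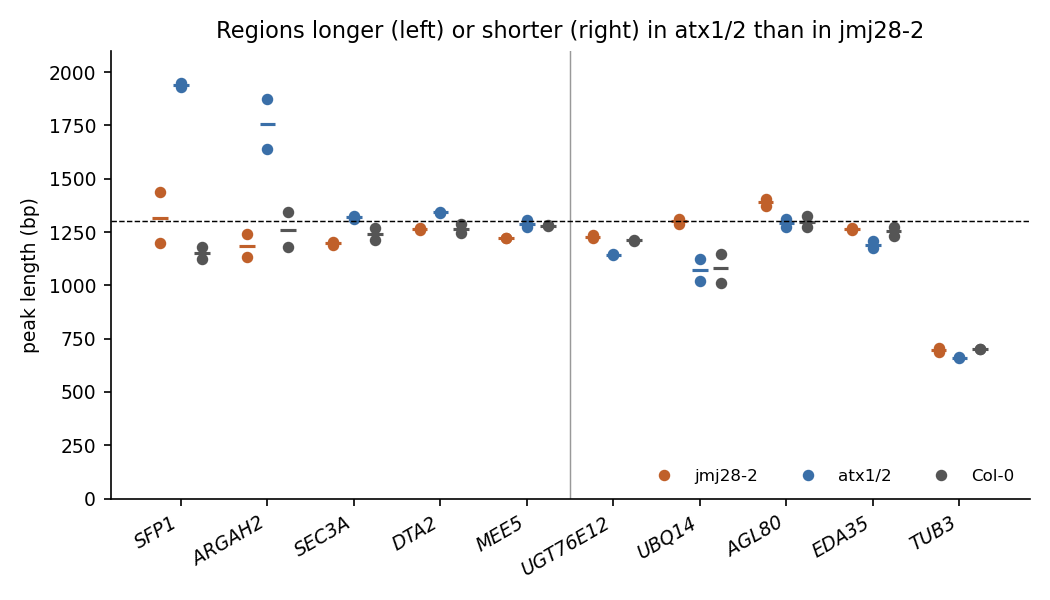
Peak length (y axis, bp) in each library for the 5 regions with the smallest p among those longer in atx1/2 than in jmj28-2 and the 5 among those shorter (x axis, gene symbol). Points are libraries, short lines are genotype means, and the dashed line is the limit of 1300 bp; jmj28-2 is orange, atx1/2 blue and Col-0 grey. The atx1/2 points of SFP1 lie at 1950 and 1929 bp and those of ARGAH2 at 1876 and 1639 bp, above every jmj28-2 and Col-0 point of their region.

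Differences between a mutant and Col-0 are given only as a description, because Col-0 lengths chose the regions. No narrow region passed the adjusted threshold in jmj28-2 minus Col-0, where 1.44% of all tested regions did, and 1 passed in atx1/2 minus Col-0, where 1.85% did; nothing is read from these counts. The 1 region was that of SFP1, with a log2 difference of 0.66 ± 0.0817 (SE) and an adjusted p of 0.0464 from limma, which rose above 0.05 when any 1 of the atx1/2 or Col-0 libraries was left out (adjusted p of 0.193 to 0.319). The median length difference of narrow regions was 5.5 bp in jmj28-2 minus Col-0 and 16.75 bp in atx1/2 minus Col-0, whereas in wider single-peak regions it was -27.5 bp in jmj28-2 minus Col-0 and -18.0 bp in atx1/2 minus Col-0. Choosing the narrow regions by other libraries moved these values. With regions chosen by the jmj28-2 libraries the medians were -18.5 bp in jmj28-2 minus Col-0 and 5.5 bp in atx1/2 minus Col-0. Chosen by the atx1/2 libraries they were -5.0 bp in jmj28-2 minus Col-0 and -8.0 bp in atx1/2 minus Col-0. With regions chosen by 1 Col-0 library and set against the other Col-0 library, the medians were -3.5 and -2.25 bp for jmj28-2 and 6.0 and 10.5 bp for atx1/2.

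Among the largest differences from Col-0, some had libraries of a genotype that lay far apart and others did not. AT1G29420 (chr1:10300862-10302942) had 2063 and 2081 bp (jmj28-2), 2072 and 826 bp (atx1/2) and 1387 and 851 bp (Col-0), so both atx1/2 and Col-0 had a long and a short library. RBCS2B (chr5:15379465-15381712) had 2246 and 1347 bp (jmj28-2), 1391 and 1372 bp (atx1/2) and 1182 and 799 bp (Col-0). CYP706A6 (chr4:7315290-7316994) had 1703 and 1277 bp (jmj28-2), 865 and 1402 bp (atx1/2) and 801 and 834 bp (Col-0). RBCS2B and CYP706A6 belong to families with close copies, and their lengths are uncertain for the reason given for TUB2. AT2G29180 (chr2:12541688-12544010) had 1249 and 2286 bp (jmj28-2), 2159 and 2298 bp (atx1/2) and 1269 and 1303 bp (Col-0), and AT4G34930 (chr4:16636446-16638356) had 1149 and 1911 bp (jmj28-2), 1850 and 1876 bp (atx1/2) and 1098 and 1085 bp (Col-0). In both, the atx1/2 libraries were close to each other, as were those of Col-0, while jmj28-2 replicate 1 was short like Col-0 and replicate 2 long like atx1/2. The same held for atx1/2 and Col-0 in SFP1, whose lengths are given above. The AT3G44405 region (chr3:16049424-16050775) was shorter in the mutants, with 799 and 922 bp (jmj28-2), 1059 and 1130 bp (atx1/2) and 1350 and 1138 bp (Col-0). AT5G37460 (chr5:14859822-14860971) had 778 and 787 bp (jmj28-2), 898 and 1016 bp (atx1/2) and 1107 and 1046 bp (Col-0), with no overlap between genotypes. AST56, AT4G12770 and AT3G44670 had the largest deficits in atx1/2. For AST56, which encodes a sulphate transporter, the deficit rested on Col-0 replicate 1, with 957 and 1006 bp (jmj28-2), 1000 and 916 bp (atx1/2) and 1457 and 913 bp (Col-0). AT4G12770 likewise had 806 and 804 bp (jmj28-2), 903 and 825 bp (atx1/2) and 1158 and 882 bp (Col-0). AT3G44670, in contrast, had 667 and 704 bp (jmj28-2), 529 and 669 bp (atx1/2) and 758 and 739 bp (Col-0).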

How the data were processed

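H3K4me3 was measured in 6 libraries of 12-day-old seedlings. The authors deposited 1 peak list per library, with the start, end and score of each peak; the score is the value of their peak caller, and MACS 1.4, Bowtie2 2.2.8, ChIPseeker, deepTools 2.4.1 and the build TAIR10 are named without roles in the submitters' processing notes. Which control library was used, how reads matching several places were treated and how deep the libraries were is not given in the sources used here, so the depth is unknown and no interval for reads is given. Scores were used only as ranks within a list or as a minimum.

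Starts were converted to positions counted from 1. The tests used R 4.3.3 and its package limma 3.58.1, with 6 libraries in 1 fit (3 residual degrees of freedom), a pseudocount of 200 bp, which understates the change of short regions, and Benjamini-Hochberg adjustment. On simulated lengths for atx1/2 against jmj28-2 with 13483 regions, shortening to 0.7 of the length was called in 72 of 100 regions, lengthening to 1.3 in 66 of 100, and 7 of 13283 unchanged regions were called. The changed regions were drawn from regions of every length, so these rates do not hold for narrow regions, whose own rate was not computed. Gene names and spans came from a RefSeq table of assembly TAIR10.1; in 102 of 102 windows of 1000 kb its best match to the peaks lay within 500 bp. Other software was scipy 1.17.1, numpy 2.4.6, matplotlib 3.10.9 and pandas 2.3.3 under Python 3.11.15.

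Named genes are the 6 shortest, the 8 strongest, the 5 with the smallest p in each direction of atx1/2 against jmj28-2, the 3 largest differences of each mutant from Col-0 in each direction, up to 4 per gene list, those beside the limit, and the study's own genes; other genes were named after their values were seen. The members and gene lists were chosen with earlier results of these data known. Alternatives covered the limit, the choosing libraries, score minimums, merging, peak numbers, pseudocounts, filters, scaling, the variance model, the replicate number as a block and each library left out.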

Additional observations from a re-analysis of the deposited data

How the results depend on the processing

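The number of narrow regions was 208 at a limit of 1200 bp, 670 at 1400 bp, 232 with a minimum score of 50 and 125 with one of 100, and between 393 and 424 with 1 library left out. The median length difference in atx1/2 minus jmj28-2 was 21.5 bp with regions chosen by the jmj28-2 libraries and 6 to 22 bp with 1 library left out. In jmj28-2 minus Col-0 it was -18.5 bp when chosen by jmj28-2, -5 bp when chosen by atx1/2, and -3.75 to 16.25 bp with 1 library left out. In atx1/2 minus Col-0 it was 19.5 bp at 1200 bp, 15.25 bp at 1400 bp, 5.5 bp when chosen by jmj28-2, -8 bp when chosen by atx1/2, 7 bp when chosen by all 6, 15 and 15.5 bp when chosen by Col-0 replicate 1 or 2 alone, 13 bp with scores of 50 or more, 7.5 bp with 100 or more, and 13 to 24.5 bp with 1 library left out.

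With limma, 0 narrow regions were called in atx1/2 minus jmj28-2 (30 at an unadjusted p under 0.05); 1 was called with the replicate number as a block, and 0 to 3 with 1 library left out. In jmj28-2 minus Col-0 the count was 1 with libraries centred on their median, and 0 to 2 with 1 left out. In atx1/2 minus Col-0 it was 0 with a pseudocount of 50 bp, with no filter and with scores of 100 or more, 2 with centred libraries, 3 with the 4 libraries of the comparison alone, and 0 to 3 with 1 left out; the causes were not tested. The region called with the block in atx1/2 minus jmj28-2 was ARGAH2 (adjusted p 0.0161). Deviations of libraries with the same replicate number correlated at 0.0682, 0.0249 and 0.0182, so they share only a number. SFP1 in atx1/2 minus Col-0 had an adjusted p of 0.145 with the block.

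Of the alternatives added after seeing the data, regions without a protein-coding gene made up 6.61% of those with scores of 100 or more in every library, regions covering no gene end 24.5% at 1200 bp and 10.7% at 1400 bp, and the median gene span was 2464 bp with scores of 100 or more. The other 94 values for the main comparisons stayed within the replicate spread, the counting interval or 1.5 times the count. Unknown depth limits all lengths, since a peak's edges depend on it.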

Other observations

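Narrow regions were also found where few other H3K4me3 regions lie. The nearest other region was over 10 kb away for 23 narrow regions (6.02%) and for 2.47% of wider single-peak regions. The most isolated one, at chr4:2992978-2994391, was 175250 bp from its nearest neighbour and overlapped no annotated gene. This region, with a peak in every library by the rule, had 1414 and 1356 bp (jmj28-2), 1242 and 1171 bp (atx1/2) and 1219 and 1298 bp (Col-0). Its score stood at percentile 28.5 on average. Another region without annotation, chr3:14810866-14812051, was 57700 bp from the next and had 1097 and 1178 bp (jmj28-2), 1132 and 1162 bp (atx1/2) and 1097 and 1052 bp (Col-0). Chromosome 3 held 13.9% of narrow regions (interval 10.8 to 17.7) and 19.8% of wider single-peak regions (19.1 to 20.5). On chromosomes 1, 2, 4 and 5 the intervals of narrow and wider single-peak regions overlapped, and the difference on chromosome 3 was not tested.

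AT1G63250, chosen after its values were seen, was longer in all 4 mutant libraries than in both Col-0 libraries. Its region (chr1:23465946-23467049) had 970 and 1045 bp (jmj28-2), 989 and 1024 bp (atx1/2) and 768 and 730 bp (Col-0), with adjusted p-values from limma of 0.0667 in jmj28-2 minus Col-0 and 0.0527 in atx1/2 minus Col-0. The comparisons share the Col-0 libraries whose lengths chose the region.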
